A study of Homo sapiens with 12 samples.

Results

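The histone genes listed for MIA PaCa-2, an established human pancreatic cancer line, are described across gemcitabine and glutamine treatment. Members were all rows whose symbol begins with a histone family name (H1, H2A, H2B, H3, H4 or macroH2A), which gave 45 of the 15090 rows in the deposited table. By symbol, 33 are replication-dependent genes, 11 are replacement genes and 1, H2BC20P, is a pseudogene. The 12 libraries form 4 groups of 3, which the series design calls biological triplicates: 40 mM L-glutamine with 0.5 µM gemcitabine, 40 mM without drug, 2 mM with 0.5 µM gemcitabine, and 2 mM without drug. All groups are the same WT line, kept in RPMI 1640 lacking glutamine to which L-glutamine was added back, and all were labelled 48 h. Total RNA was sequenced, and nothing beyond the word triplicates says whether replicates came from separate cultures on separate days, so p-values measure the spread between these libraries.

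Replication-dependent histone genes lie in clusters, are transcribed during S phase, and give mRNAs that end in a conserved stem-loop in place of a poly(A) tail. The stem-loop is bound by SLBP, and these mRNAs are known to be lost quickly when DNA synthesis stops. Replacement genes lie apart, are expressed through the cell cycle and give polyadenylated mRNAs, and their proteins exchange into chromatin outside replication. H2AX is a mixed case, known to give both kinds of mRNA end, and some clustered genes are also known to give polyadenylated transcripts. Gemcitabine is a deoxycytidine analogue that blocks DNA synthesis. The sources used here do not say how RNA was selected for the libraries, so the levels of mRNAs without a poly(A) tail cannot be set against those with one. Histone genes of a family also share near-identical coding sequence, so which gene a read was assigned to is uncertain for the clustered genes.

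The stem-loop was looked for by its consensus in annotated transcript models (GENCODE v29, GRCh38), which matched 43 of the 45 symbols. Of the 12 replication-dependent genes that could be tested, 5 have a model that holds the consensus histone stem-loop. These 5 and H2AX are shown because they are the tested coding genes in which the loop was found, and capitals mark the loop (models of the pseudogene H2BC20P also hold it):
H2BC21: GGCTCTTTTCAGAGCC
H2AW: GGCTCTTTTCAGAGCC
H2AC6: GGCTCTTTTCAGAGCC
H2AC11: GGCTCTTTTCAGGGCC
H2BC5: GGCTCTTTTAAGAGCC
H2AX: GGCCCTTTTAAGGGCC
The annotated models of H2BC21, H2AC6, H2AC11 and H2AW run 1729, 1114, 1761 and 390 bases past the loop, and that of H2AX runs 1044 bases past it. The loop model of H2BC5 ends 39 bases past it. Among the 21 replication-dependent genes too low to test, 20 had a model, 10 of these held the loop and 6 ran more than 100 bases past it. The model of H2BC12 holds only the 381 bases of its coding sequence, as do several others, so a missing loop says nothing there. Which end was sequenced in these libraries was not measured.

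Promoters (RefSeq, GRCh38.p14, from 250 bases before to 50 bases after the start) were held for 40 of the 45 symbols. The TATA box, searched as TATAAA on both strands, was in 21 of 30 replication-dependent promoters, in 4 of 10 replacement promoters and in 11.95% of all 27305 promoters. The CCAAT box, searched as CCAAT, was in 29 of the 30, in 7 of the 10 and in 35.7% of all promoters. The octamer that POU factors bind, ATGCAAAT, was in 15 of the 30, in 1 of the 10 and in 1.80% of all. The E2F motif, TTTNNCGC, was in 11 of the 30, in 1 of the 10 and in 6.90% of all. Genes of a cluster share ancestry, so these promoters are not independent. Whether the windows of neighbouring genes share bases was not checked, so a match could be counted for more than 1 gene. The 4 promoters shown belong to the genes that were higher at 40 mM glutamine both with and without the drug, with the letters of any of these motifs in capitals, where matches can overlap one another. The H2BC12 promoter lies at chr6:27146809-27147108, that of H2BC21 at chr1:149886633-149886932, that of H2AW at chr1:228457824-228458123 and that of H2AX at chr11:119095416-119095715, all on the minus strand:
H2BC12: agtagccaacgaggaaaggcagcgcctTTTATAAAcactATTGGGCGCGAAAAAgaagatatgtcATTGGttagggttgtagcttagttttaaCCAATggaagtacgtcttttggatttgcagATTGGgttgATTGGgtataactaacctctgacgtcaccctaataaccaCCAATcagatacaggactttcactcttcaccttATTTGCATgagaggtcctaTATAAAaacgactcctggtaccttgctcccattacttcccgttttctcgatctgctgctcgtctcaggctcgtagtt
H2BC21: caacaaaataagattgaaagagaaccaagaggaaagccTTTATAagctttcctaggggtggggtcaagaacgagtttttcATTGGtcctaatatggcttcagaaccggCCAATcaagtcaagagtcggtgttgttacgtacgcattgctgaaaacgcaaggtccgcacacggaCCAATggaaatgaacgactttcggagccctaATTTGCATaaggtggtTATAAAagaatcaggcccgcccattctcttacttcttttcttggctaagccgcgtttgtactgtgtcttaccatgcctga
H2AW: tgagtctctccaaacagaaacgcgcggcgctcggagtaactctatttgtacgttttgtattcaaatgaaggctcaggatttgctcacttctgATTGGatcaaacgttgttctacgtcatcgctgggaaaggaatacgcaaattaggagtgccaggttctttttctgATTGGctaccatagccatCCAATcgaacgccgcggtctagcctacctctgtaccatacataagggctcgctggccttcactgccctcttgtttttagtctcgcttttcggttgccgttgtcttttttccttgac
H2AX: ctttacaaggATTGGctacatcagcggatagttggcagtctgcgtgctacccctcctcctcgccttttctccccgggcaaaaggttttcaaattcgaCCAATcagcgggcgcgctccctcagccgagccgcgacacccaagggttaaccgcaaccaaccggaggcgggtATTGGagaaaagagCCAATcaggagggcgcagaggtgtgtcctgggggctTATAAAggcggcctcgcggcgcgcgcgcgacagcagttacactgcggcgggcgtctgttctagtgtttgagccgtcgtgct
All 4 motifs were found in the H2BC12 promoter, as in those of H2AC11, H2AC14, H2AC17, H2BC11, H2BC17 and H3-3B, and the TATA box, CCAAT box and octamer in that of H2BC21. The H2AX promoter held the TATA and CCAAT boxes and the H2AW promoter the CCAAT box alone. A match is a description of the letters, not of binding.

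In summed RPM the levels of the classes were far apart. Because RNA selection is not known and read assignment is uncertain, this gap is not a comparison of expression. The part of either in it was not tested. Values are reads per 1000000 (RPM) of a library size scaled between libraries, recovered from the deposited log2(RPM + 1). The libraries held 21723094 to 32811746 reads, and 1 RPM stands for about 25.3 reads. Summed over the 33 replication-dependent genes, the level was 53.9 ± 6.32 RPM at 40 mM with gemcitabine, 53.7 ± 3.23 RPM at 40 mM without drug, 35.6 ± 2.91 RPM at 2 mM with gemcitabine and 39.4 ± 1.77 RPM at 2 mM without drug (SD, n = 3 each). The 11 replacement genes summed to 2078 ± 42.5 RPM at 40 mM with gemcitabine, 1877 ± 33.4 RPM at 40 mM without drug, 2170 ± 43.7 RPM at 2 mM with gemcitabine and 1882 ± 38.5 RPM at 2 mM without drug. Over the annotated transcript length, the mean level of the 12 tested replication-dependent genes was 0.424 to 30.6 RPM per kb (median 2.50). That of the 10 tested replacement genes was 22.8 to 650 RPM per kb (median 155). The medians were apart but the ranges overlapped, with H2BC12 at 30.6 and MACROH2A2 at 22.8 RPM per kb. Some models hold only coding sequence and others run far past the loop, so these lengths are not alike. The sums were given no test.

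Most replication-dependent genes were near or below 1 RPM. Genes entered the test with 1 RPM or more in 3 or more libraries, a level that 12 of the 33 replication-dependent genes, 10 of the 11 replacement genes (not H2BE1) and H2BC20P met. The 21 untested replication-dependent genes and H2BE1 had mean levels of 0.221 to 0.795 RPM and between 0 and 29 reads in a library. Counting alone gives the median of 8 reads in the untested genes a relative error of 35.4%, the median of 41 reads in the tested replication-dependent genes 15.6%, and the median of 4972 reads in the replacement genes 1.42%. Accordingly the standard error of a log2 fold change was 0.122 to 0.202 for the tested replication-dependent genes and 0.0295 to 0.0591 for the replacement genes, so a change of the size seen in most replacement genes was not detectable in the clustered genes at this depth.

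**Figure D1:**
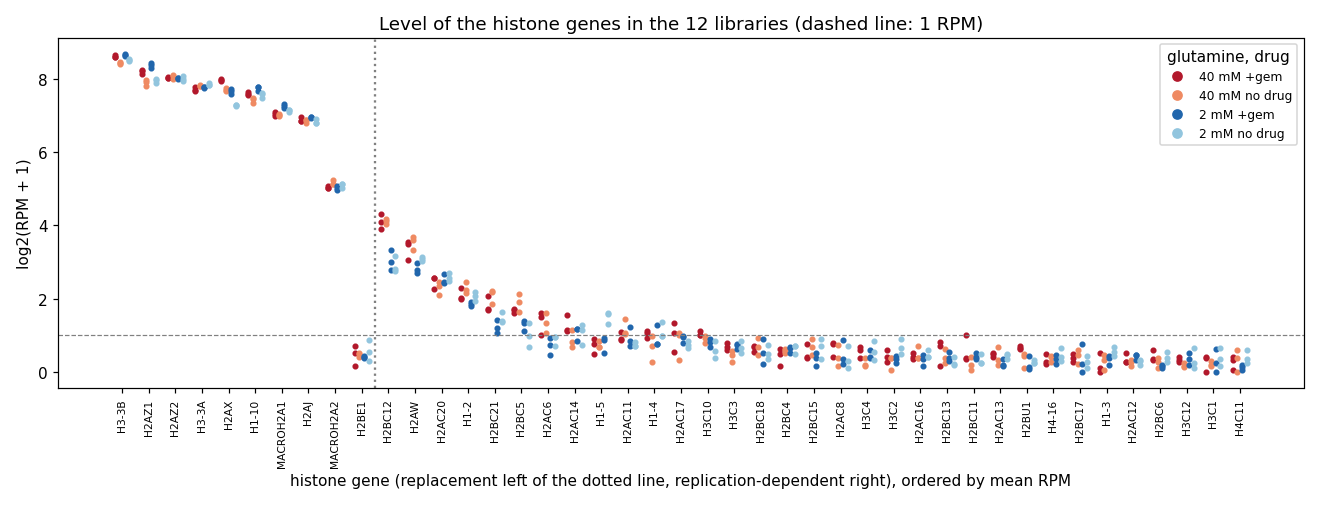
Level of the histone genes, as log2(RPM + 1), in all 12 libraries (points, coloured by group); replacement genes stand left of the dotted line, replication-dependent genes right of it, and the dashed line marks 1 RPM. Apart from H2BE1, the replacement genes lie above the clustered genes on this scale, which is not per length, with MACROH2A2 nearest to H2BC12. Of the clustered genes, 21 stay below or around 1 RPM in every group.

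Some genes passed the filter only through the groups in which they were high, and for these a difference is built into the selection. H1-5 reached 1 RPM only in the 3 libraries at 2 mM without drug. H2AC6 did so in 2 libraries at 40 mM with gemcitabine and 3 at 40 mM without drug, and H2AC17 in 2 and 2 libraries of these groups, with no library at 2 mM reaching that level. H2BC20P reached it in 1 and 2 libraries of the same groups. Counts over the tested replication-dependent genes are therefore descriptions and support nothing. H2BC12, H2AW, H2AC20, H1-2 and H2BC21 reached 1 RPM in all 12 libraries.

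Gemcitabine was compared with no drug at each glutamine level, in libraries that the 2 comparisons do not share. At both levels the drug-treated cells had more RNA for the variant H2AZ1 and for H2AX, whose phosphorylated protein marks DNA breaks, with log2 fold changes of 0.26 to 0.41. Among the 10 tested replacement genes the drug raised 7 and lowered 1 at 2 mM, and raised 5 and lowered 1 at 40 mM. Of all 12789 genes tested, 17.5% were called higher and 17.1% lower at 2 mM, and 14.1% higher and 16.2% lower at 40 mM. The tests were limma fits on log2(RPM + 1) over all 12 libraries, with Benjamini-Hochberg adjusted p under 0.05 called, and a fold change on that scale understates the change of low genes. The median log2 fold change of the replacement genes was 0.14 at 2 mM and 0.11 at 40 mM, against −0.001 and −0.005 over all genes. The samples are bulk RNA, so a change in the share of cells that express a gene and a change in RNA per cell cannot be told apart.

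H1-10, a replication-independent linker histone, measured 220, 221 and 204 RPM at 2 mM with gemcitabine, against 179, 195 and 191 RPM without drug. At 40 mM it measured 190, 192 and 200 RPM with gemcitabine, against 176, 162 and 178 RPM without drug. The groups did not overlap at either level, and the log2 fold changes of 0.19 ± 0.040 and 0.17 ± 0.040 passed (limma adjusted p = 0.000271 and 0.000845).

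H2AX measured 203, 210 and 193 RPM at 2 mM with gemcitabine, against 155, 152 and 155 RPM at 2 mM without drug. Libraries at 40 mM had 252, 246 and 257 RPM with gemcitabine, against 203, 209 and 217 RPM without drug. The groups did not overlap at either level, and the untreated cells at 40 mM lay at about the level of the drug-treated cells at 2 mM. The log2 fold changes were 0.39 ± 0.034 at 2 mM and 0.26 ± 0.034 at 40 mM (limma adjusted p = 6.31e-11 and 1.99e-07). H2AZ1, a variant found around transcription start sites, measured 313, 349 and 332 RPM at 2 mM with gemcitabine, against 237, 257 and 251 RPM without drug. Its levels at 40 mM were 280, 304 and 299 RPM with gemcitabine, against 242, 225 and 249 RPM without drug. Again no drug-treated library reached down to an untreated one, with log2 fold changes of 0.41 ± 0.039 and 0.30 ± 0.039 (limma adjusted p = 3.3e-10 and 2.4e-07). H2AZ2, which encodes nearly the same protein from another gene, did not pass at either level, with log2 fold changes of 0.01 ± 0.033 and −0.02 ± 0.033. H2AZ2 had 259, 260 and 258 RPM at 2 mM with gemcitabine, against 255, 269 and 246 RPM without drug, so the groups overlapped.

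H3-3A and H3-3B encode the same protein, the replacement variant H3.3, and their RNAs moved in opposite directions. H3-3B measured 399, 413 and 404 RPM at 2 mM with gemcitabine, against 359, 374 and 365 RPM without drug, a log2 fold change of 0.15 ± 0.029 (limma adjusted p = 0.00018). At 40 mM it measured 386, 390 and 404 RPM with gemcitabine, against 345, 338 and 354 RPM without drug, a log2 fold change of 0.19 ± 0.029 (limma adjusted p = 6.98e-06). H3-3A measured 218, 219 and 216 RPM at 2 mM with gemcitabine, against 228, 238 and 230 RPM without drug, and 204, 206 and 218 RPM at 40 mM with gemcitabine, against 229, 222 and 225 RPM without drug. The groups of both genes did not overlap, but the falls of H3-3A, by 0.09 and 0.11 on the log2 scale (limma adjusted p = 0.0291 and 0.0104), were small. The H3-3A call at 2 mM was lost without replicate 2 of the untreated libraries (limma adjusted p = 0.134) or without replicate 1, 2 or 3 of the treated ones (0.063, 0.0578 and 0.0876). The call at 40 mM was lost without treated replicate 1 (0.0648) or 2 (0.0522).

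MACROH2A1 and H2AJ passed at 2 mM and not at 40 mM, and the test of that difference is the interaction given further on. MACROH2A1, a variant with a large extra domain linked to silent chromatin, measured 148, 159 and 153 RPM at 2 mM with gemcitabine, against 143, 138 and 141 RPM without drug (log2 fold change 0.12 ± 0.037, limma adjusted p = 0.00959). H2AJ, a variant known to accumulate in senescent human fibroblasts with lasting DNA damage, measured 123, 124 and 124 RPM at 2 mM with gemcitabine, against 110, 119 and 111 RPM without drug (0.12 ± 0.039, limma adjusted p = 0.012). The groups were separate by a few RPM in both genes. The MACROH2A1 call was lost without treated replicate 2 (limma adjusted p = 0.0847) and the H2AJ call without untreated replicate 1 (0.0713). At 40 mM the log2 fold changes were 0.02 ± 0.037 and 0.04 ± 0.039. MACROH2A2 had values of 31.7 ± 1.25 RPM at 2 mM with gemcitabine and 33.2 ± 1.20 RPM without drug, and 31.9 ± 0.572 RPM at 40 mM with gemcitabine and 34.9 ± 1.49 RPM without drug (SD, n = 3 each), and passed in neither comparison.

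**Figure D2:**
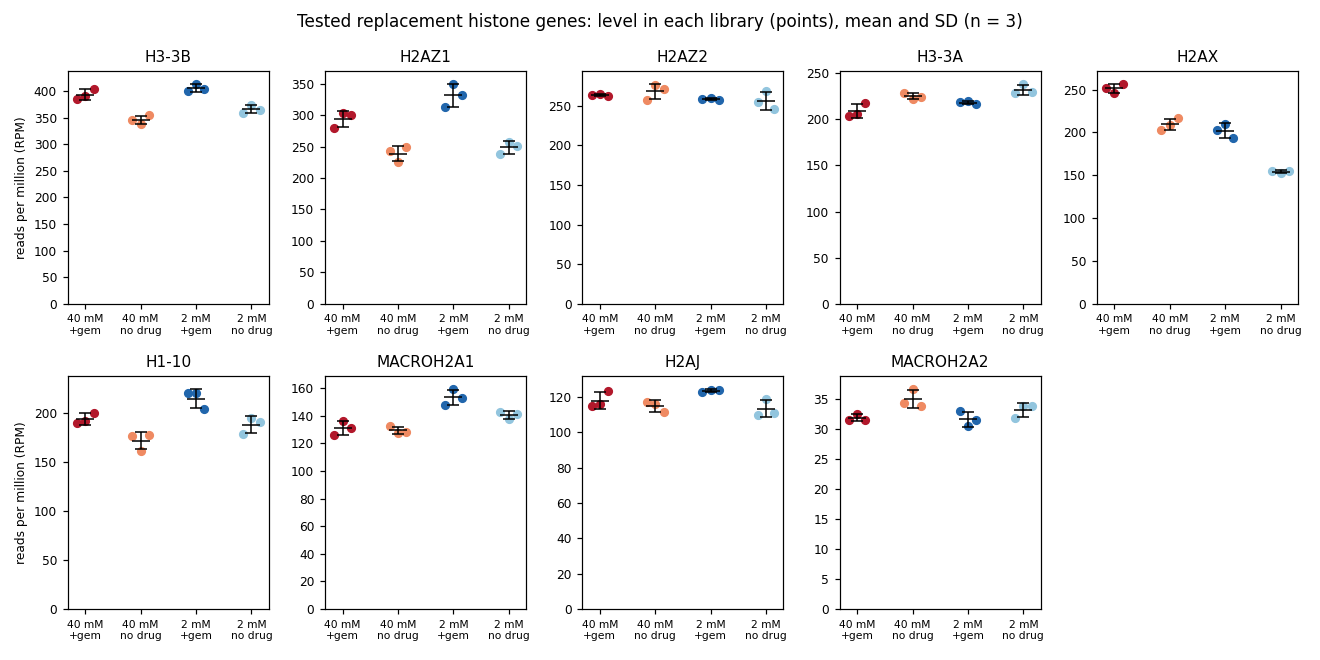
Level in RPM (vertical axis, from 0) of 9 tested replacement histone genes in each library (points), with the mean and SD of each group of 3 libraries (bars). H2AX and H2AZ1 stand higher in drug-treated libraries at both glutamine levels, and H2AX also stands higher at 40 than at 2 mM glutamine.

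The replication-dependent genes gave 1 call with the drug, H1-5 at 2 mM. H1-5, a linker histone of dividing cells, measured 0.421, 0.883 and 0.833 RPM at 2 mM with gemcitabine, against 1.48, 2.06 and 1.96 RPM at 2 mM without drug. These are 11, 19 and 27 reads in the treated libraries, against 37, 46 and 53 reads in the untreated ones. The groups did not overlap and the log2 fold change was −0.73 ± 0.177 (limma adjusted p = 0.00144), but the gene was tested only because the untreated libraries at 2 mM reached 1 RPM. At 40 mM H1-5 measured 0.648 ± 0.239 RPM with gemcitabine and 0.659 ± 0.12 RPM without drug (SD, n = 3 each), a log2 fold change of −0.02 ± 0.177.

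The other 11 tested replication-dependent genes did not pass at 2 mM, and none of the 12 passed in limma at 40 mM. At an unadjusted p under 0.05 there were 0 higher and 2 lower at 2 mM, and 1 higher and 0 lower at 40 mM, and limma's voom fit on recovered reads called 0 higher and 1 lower at 2 mM and 0 at 40 mM. The log2 fold changes ran from −0.73 to 0.28 at 2 mM (median −0.11) and from −0.26 to 0.39 at 40 mM (median −0.02). H2BC12 measured 7.04, 9.06 and 5.83 RPM at 2 mM with gemcitabine, against 5.98, 5.78 and 8.04 RPM without drug. It had, at 40 mM, 18.9, 14.1 and 15.9 RPM with gemcitabine, against 15.5, 16.5 and 17.2 RPM without drug. The groups overlapped at both levels. Without the filter on low values, no untested histone row passed in either drug comparison, the smallest adjusted p being 0.107 for H3C2 at 2 mM and 0.109 for H2BC11 at 40 mM.

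Glutamine at 40 mM was compared with 2 mM, without and with the drug, again in libraries that the 2 comparisons do not share. The clustered H2B genes H2BC12 and H2BC21, the H2A gene H2AW and the variant H2AX had more RNA at 40 mM in both comparisons. H2BC5 passed without the drug and H2AC6 with it, and several replacement genes were slightly lower. Read assignment is uncertain for the clustered genes, and whether the rises of the H2B genes are separate was not tested. Of the 12 tested replication-dependent genes 4 rose and 1 fell without the drug, and 4 rose with it. Over all genes, 8.41% were called higher and 9.12% lower without the drug, and 8.62% higher and 13.0% lower with it. At an unadjusted p under 0.05 in limma, 6 of the 12 were higher and 3 lower without the drug, and 5 higher and 0 lower with it. The median log2 fold change of the tested replication-dependent genes was 0.33 without and 0.22 with the drug, against 0.002 and −0.002 over all genes. However, H2AC6, H2AC17 and H2AC11 entered the test only or mainly through libraries at 40 mM, so a rise is partly built into these counts and medians. The gene that fell, H1-5, entered only through libraries at 2 mM without drug, so its fall is built into the selection too. The 22 untested histone rows had a median difference in log2(RPM + 1) of −0.07 without the drug, with 14 of them below 0, and of 0.09 with it, with 15 above 0. Of the 10 tested replacement genes, 1 rose and 4 fell in each comparison, with medians of −0.05 and −0.06.

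H2BC12, which encodes a core H2B, had the largest log2 fold change of RPM + 1 among all 12789 tested genes in both glutamine comparisons, on a scale that compresses low genes. It measured 18.9, 14.1 and 15.9 RPM at 40 mM with gemcitabine, against 7.04, 9.06 and 5.83 RPM at 2 mM with gemcitabine. Without drug it measured 15.5, 16.5 and 17.2 RPM at 40 mM, against 5.98, 5.78 and 8.04 RPM at 2 mM. The lowest library at 40 mM, at 14.1 RPM, lay above the highest at 2 mM, at 9.06 RPM, and the recovered reads were 340 to 473 at 40 mM against 129 to 217 at 2 mM. The log2 fold change was 1.20 ± 0.123 without the drug and 1.07 ± 0.123 with it (limma adjusted p = 7.68e-09 and 1.03e-07), and the ratios of mean RPM were 2.48 and 2.23. The lower genes H2BC5 without the drug and H2AC6 with it had larger ratios of mean RPM, 2.67 and 2.54.

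H2AW, an H2A gene in a small cluster of its own, measured 10.8, 7.37 and 10.2 RPM at 40 mM with gemcitabine, against 5.93, 6.88 and 5.52 RPM at 2 mM with gemcitabine. Without drug it measured 11.9, 9.06 and 11.1 RPM at 40 mM, against 7.10, 7.48 and 7.78 RPM at 2 mM. The groups were separate in both comparisons, narrowly so with the drug. The log2 fold changes were 0.46 ± 0.122 without and 0.55 ± 0.122 with the drug (limma adjusted p = 0.00723 and 0.00128). H2BC21, a core H2B whose model runs far past its stem-loop, measured 3.24, 2.28 and 2.21 RPM at 40 mM with gemcitabine, against 1.64, 1.30 and 1.08 RPM at 2 mM with gemcitabine. Without drug it measured 2.62, 3.57 and 3.63 RPM at 40 mM, against 2.11, 1.57 and 1.63 RPM at 2 mM. The groups did not overlap, with log2 fold changes of 0.62 ± 0.159 and 0.61 ± 0.159 (limma adjusted p = 0.00564 and 0.00547). The call with the drug was lost without replicate 1 at 40 mM with gemcitabine, where the log2 fold change was 0.48 (limma adjusted p = 0.0575).

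H2BC5, also a core H2B, measured 2.11, 3.40 and 2.75 RPM at 40 mM without drug, against 1.52, 0.985 and 0.593 RPM at 2 mM without drug, a log2 fold change of 0.90 ± 0.17 (limma adjusted p = 0.000244). With gemcitabine it measured 2.20, 2.07 and 2.29 RPM at 40 mM, against 1.61, 1.16 and 1.51 RPM at 2 mM. These groups did not overlap either, but the log2 fold change of 0.40 ± 0.17 did not pass (limma adjusted p = 0.094). H2AC6, a core H2A, measured 0.999, 2.07 and 1.82 RPM at 40 mM with gemcitabine, against 0.382, 0.65 and 0.894 RPM at 2 mM with gemcitabine, a log2 fold change of 0.67 ± 0.187 (limma adjusted p = 0.00886). Without drug it measured 2.07, 1.09 and 1.503 RPM at 40 mM, against 0.917, 0.941 and 0.63 RPM at 2 mM, and the log2 fold change of 0.47 ± 0.187 did not pass (limma adjusted p = 0.0782). No pair of these groups overlapped, but H2AC6 was tested only because of its level at 40 mM. Its call was lost without replicate 1 at 2 mM with gemcitabine (limma adjusted p = 0.0663) or replicate 2 at 40 mM with gemcitabine (0.0682), and the call without drug was gained without replicate 2 at 40 mM (log2 fold change 0.60, limma adjusted p = 0.0401).

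H1-5 went the other way, with 0.592, 0.797 and 0.587 RPM at 40 mM without drug, against 1.48, 2.06 and 1.96 RPM at 2 mM without drug, a log2 fold change of −0.77 ± 0.177 (limma adjusted p = 0.00211). This comparison shares its 2 mM libraries with the drug comparison above, and they are the only ones that reach 1 RPM. With gemcitabine the log2 fold change was −0.05 ± 0.177. H2AC20, H1-2, H2AC14, H2AC11, H1-4 and H2AC17 passed in neither glutamine comparison, with log2 fold changes from −0.45 (H1-4) to 0.45 (H2AC11) without the drug and from −0.05 (H2AC20) to 0.24 (H1-2) with it. Without drug, H2AC20 averaged 3.95 RPM at 40 mM, against 5.02 RPM at 2 mM. These groups did not overlap, but the difference did not pass (limma adjusted p = 0.135). H2AC11 without the drug and H1-2 with it were higher at 40 mM, also without overlap. The pseudogene H2BC20P, at 0.785 RPM on average, passed in no comparison. Without H2BC12, the sum over replication-dependent genes was 37.5 RPM at 40 mM with gemcitabine, 37.3 RPM at 40 mM without drug, 28.3 RPM at 2 mM with gemcitabine and 32.8 RPM at 2 mM without drug. With all 5 genes that rose left out, which were picked from these values, the other 28 summed to 21.7 RPM at 40 mM with gemcitabine, 19.0 RPM at 40 mM without drug, 18.8 RPM at 2 mM with gemcitabine and 21.7 RPM at 2 mM without drug. The 21 untested genes summed to 8.73 ± 1.45 RPM at 40 mM with gemcitabine, 7.004 ± 0.883 RPM at 40 mM without drug, 6.85 ± 0.745 RPM at 2 mM with gemcitabine and 8.01 ± 1.12 RPM at 2 mM without drug (SD, n = 3 each). Without the filter, H2BU1 passed with the drug (log2 fold change 0.45, limma adjusted p = 0.0326), at 0.559, 0.538 and 0.632 RPM at 40 mM with gemcitabine, against 0.344, 0.0465 and 0.0925 RPM at 2 mM with gemcitabine. These are 14, 13 and 16 reads, against 9, 1 and 3 reads. In that fit 1076 of 15090 genes were called higher.

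**Figure D3:**
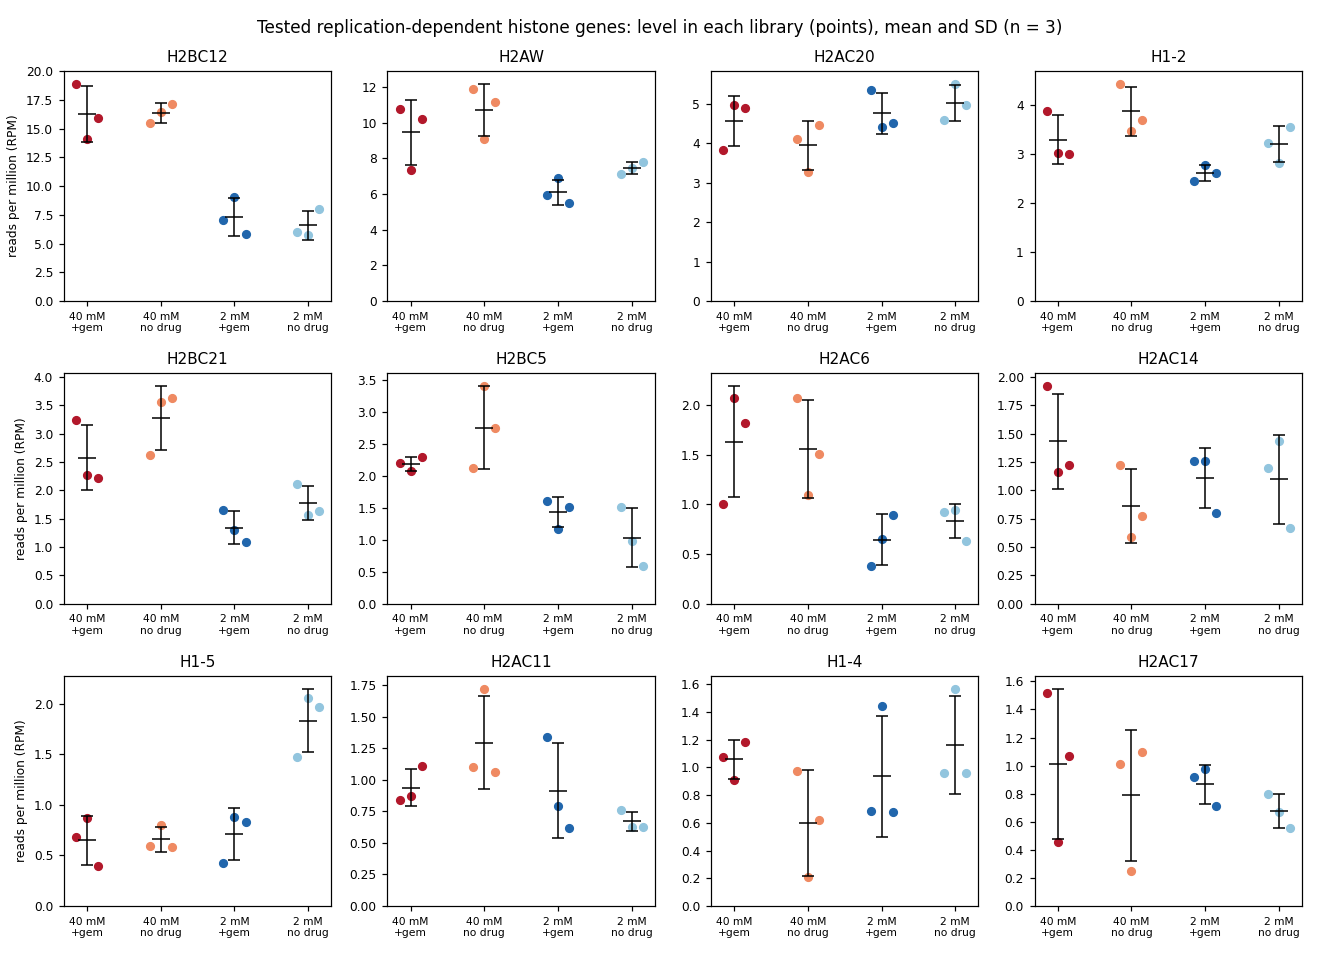
Level in RPM (vertical axis, from 0, its own scale in each panel) of the 12 tested replication-dependent histone genes in each library (points), with the mean and SD of each group of 3 libraries (bars). H2BC12, H2AW and H2BC21 stand higher at 40 mM than at 2 mM glutamine with and without the drug, and H1-5 is above 1 RPM only at 2 mM without drug.

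Among the replacement genes, H2AX was the one that rose with glutamine, by log2 fold changes of 0.44 ± 0.034 without and 0.32 ± 0.034 with the drug (limma adjusted p = 3.52e-11 and 3.28e-08). Without drug, cells at 40 mM averaged 209 ± 6.97 RPM, against 154 ± 1.61 RPM for cells at 2 mM (SD, n = 3 each). With gemcitabine, cells at 40 mM averaged 252 ± 5.04 RPM, against 202 ± 8.52 RPM for cells at 2 mM. The 4 groups of H2AX thus stood in the order 40 mM with drug, 40 mM without drug, 2 mM with drug and 2 mM without drug. The middle pair shared values, with 203 to 217 RPM at 40 mM without drug and 193 to 210 RPM at 2 mM with gemcitabine. H2AX is also the one tested replacement gene whose annotated transcript holds the histone stem-loop. A link between the loop and the rise was not tested.

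With the drug, MACROH2A1 had 131 ± 5 RPM at 40 mM, against 153 ± 5.68 RPM at 2 mM (SD, n = 3 each; log2 fold change −0.22 ± 0.037, limma adjusted p = 4.11e-05). H2AZ1 had 294 ± 12.6 RPM at 40 mM and 331 ± 18.1 RPM at 2 mM (−0.17 ± 0.039, limma adjusted p = 0.00181), and H1-10 had 194 ± 5.72 RPM at 40 mM and 215 ± 9.55 RPM at 2 mM (−0.15 ± 0.04, limma adjusted p = 0.00674). None of these groups overlapped between the glutamine levels. The H1-10 call was lost without replicate 2 at 2 mM with gemcitabine (limma adjusted p = 0.0514) and under quantile normalization (log2 fold change −0.09, limma adjusted p = 0.127).

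Without the drug, the falls at 40 mM were small and depended on single libraries. H1-10 (log2 fold change −0.13), MACROH2A1 (−0.12) and H3-3B (−0.08) had limma adjusted p of 0.0197, 0.0221 and 0.0453. H1-10 had 172 ± 9.08 RPM at 40 mM, against 188 ± 8.44 RPM at 2 mM, MACROH2A1 129 ± 2.57 RPM at 40 mM and 141 ± 2.73 RPM at 2 mM, and H3-3B 346 ± 8.1 RPM at 40 mM, against 366 ± 7.63 RPM at 2 mM (SD, n = 3 each). Leaving out replicate 2 at 40 mM without drug ended these 3 calls, with limma adjusted p of 0.153 for H1-10, 0.0668 for MACROH2A1 and 0.154 for H3-3B. At 2 mM without drug, leaving out replicate 1 ended the call of MACROH2A1 (0.0795). Leaving out replicate 2 there ended those of H1-10 (0.109) and H3-3B (0.176), and replicate 3 those of H1-10 (0.0685), MACROH2A1 (0.0607) and H3-3B (0.0807). Without replicate 3 at 40 mM without drug MACROH2A1 no longer passed (0.0687), nor did H3-3B without replicate 1 (0.0802). H3-3B also failed without any 1 of the 3 libraries at 2 mM with gemcitabine (0.0526, 0.0541 and 0.0572) or without replicate 2 at 40 mM with gemcitabine (0.0544), which enter only through the shared estimate of spread.

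The interaction asks whether the response to the drug differed between 40 and 2 mM glutamine. No histone row passed in limma, in either direction, where 0.727% of all genes were called higher and 1.47% lower. At an unadjusted p under 0.05 there were 5 histone rows, and limma's voom fit on recovered reads gave 0 calls and 5 rows at that unadjusted level. The interaction of H2AX was −0.12 ± 0.049 (limma adjusted p = 0.202), that of MACROH2A1 −0.10 ± 0.052 (0.358), that of H2AJ −0.09 ± 0.055 (0.463), that of H1-5 0.71 ± 0.25 (0.134) and that of H2BC5 −0.50 ± 0.241 (0.316). These genes are therefore not shown to respond differently at the 2 levels, and the errors of the clustered genes are wide enough to hold large differences. H1-5 was tested only because its libraries at 2 mM without drug reached 1 RPM, so a positive interaction is built into its selection.

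**Figure D4:**
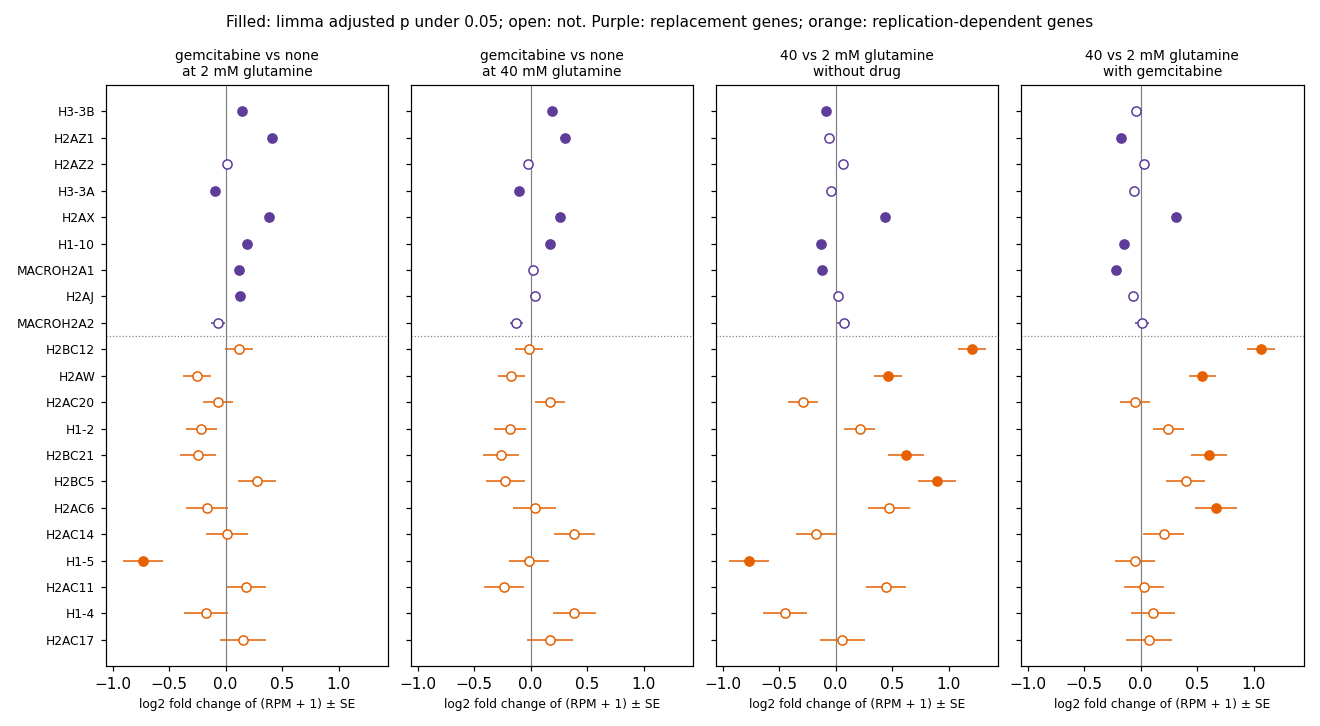
Log2 fold change of (RPM + 1) with its SE (horizontal axis) for 21 tested histone genes in the 4 pairwise comparisons; purple marks replacement genes, orange replication-dependent genes, and filled points passed limma at an adjusted p under 0.05. Calls with gemcitabine lie mostly among the replacement genes with their narrow errors, and the largest glutamine responses, such as 1.20 and 1.07 of H2BC12, lie among the replication-dependent genes.

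Genes that make, process and carry histones were read from lists chosen with earlier results of these data known, and some of their counts lie near the share over all genes. Of 16 tested genes for histone mRNA transcription and 3' end processing, gemcitabine raised 9 and lowered 2 at 2 mM, and raised 3 and lowered 2 at 40 mM (medians 0.13 and 0.04 on the log2 scale), where 17.5% of all genes were called higher and 17.1% lower at 2 mM, and 14.1% higher and 16.2% lower at 40 mM. SLBP, the stem-loop binding protein, averaged 130 RPM at 2 mM with gemcitabine and 103 RPM without drug (log2 fold change 0.34 ± 0.043, limma adjusted p = 7.93e-08), and 133 RPM at 40 mM with gemcitabine and 113 RPM without drug (0.24 ± 0.043, 5.15e-05). CDK2, the kinase that activates NPAT, rose by 0.42 ± 0.046 and 0.36 ± 0.046. NPAT, the coactivator of histone gene transcription, rose at 2 mM (0.27 ± 0.057, limma adjusted p = 0.000366), and had a log2 fold change of 0.04 ± 0.057 at 40 mM. CASP8AP2, a component of the histone locus body, rose at 2 mM (0.30 ± 0.046) and had 0.10 ± 0.046 at 40 mM (limma adjusted p = 0.0911). SYMPK, a scaffold of the 3' cleavage complex, fell by 0.34 and 0.26. With glutamine, 4 of these genes rose without the drug, among them NPAT (0.23 ± 0.057), CASP8AP2 (0.25 ± 0.046) and SLBP (0.14 ± 0.043), and 4 fell with the drug, among them CDK2 (−0.16 ± 0.046), where 8.41% of all genes were called higher without the drug and 13.0% lower with it. In the interaction ERI1, an exonuclease that trims histone mRNA ends, passed (−0.20, limma adjusted p = 0.0348).

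Of 27 tested histone chaperones and import factors, gemcitabine raised 15 and lowered 2 at 2 mM, and raised 11 and lowered 2 at 40 mM (medians 0.15 and 0.13), beside the same all-gene shares of 17.5% and 17.1% at 2 mM and 14.1% and 16.2% at 40 mM. CHAF1A, the large subunit of the replication-coupled chaperone CAF-1, averaged 99.7 RPM at 2 mM with gemcitabine and 64.4 RPM without drug (log2 fold change 0.62 ± 0.042, limma adjusted p = 8.31e-14). At 40 mM it averaged 83.6 RPM with gemcitabine and 70.7 RPM without drug (0.24 ± 0.042, limma adjusted p = 3.35e-05), and its interaction passed (−0.38 ± 0.06, limma adjusted p = 0.000217). MCM2, a helicase subunit that also holds histones, rose by 0.52 ± 0.032 and 0.31 ± 0.032, and its interaction passed too (−0.21 ± 0.046, limma adjusted p = 0.0103). ASF1B, which hands H3-H4 to CAF-1, rose by 0.53 ± 0.041 and 0.40 ± 0.041, and HJURP, the chaperone of CENPA, by 0.34 ± 0.043 and 0.49 ± 0.043. In all, 4 of the 27 passed lower in the interaction, the other two being CHAF1B and HIRA, where 1.47% of all genes were called lower. With glutamine, 4 rose and 1 fell without the drug (8.41% and 9.12% of all genes), and 3 rose and 5 fell with it (8.62% and 13.0% of all genes).

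CENPA, the centromeric H3 variant, whose symbol does not carry a histone family prefix, averaged 48.8 RPM at 2 mM with gemcitabine and 41.7 RPM without drug (log2 fold change 0.22 ± 0.057, limma adjusted p = 0.00256). At 40 mM it averaged 49.98 RPM with gemcitabine and 41.0 RPM without drug (0.28 ± 0.057, limma adjusted p = 0.000204). Of 17 tested genes for exchange of H2A variants and H2AX signalling, gemcitabine raised 5 and lowered 3 at 2 mM, and raised 4 and lowered 1 at 40 mM (medians 0.06 and 0.01), against 17.5% and 17.1% of all genes at 2 mM and 14.1% and 16.2% at 40 mM. ATM, the kinase that phosphorylates H2AX at DNA breaks, fell by 0.36 and 0.23 (limma adjusted p = 2.36e-06 and 0.00111). ACTL6A and RUVBL1, subunits of H2A.Z exchange complexes, rose by 0.24 ± 0.035 and 0.19 ± 0.033 at 2 mM and by 0.11 ± 0.035 and 0.10 ± 0.033 at 40 mM. EP400, the motor of such a complex, fell at 2 mM (−0.18 ± 0.046) and had −0.12 ± 0.046 at 40 mM (limma adjusted p = 0.0504). With glutamine, 1 of the 17 rose and 2 fell without the drug (8.41% and 9.12% of all genes), and 3 rose and 4 fell with it (8.62% and 13.0% of all genes).

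Markers of the line and of other cell types were chosen for this report, since the sample titles name none. The epithelial keratins KRT8, KRT18 and KRT19 were at 1355 to 2357, 795 to 1603 and 196 to 291 RPM and VIM at 2944 to 3488 RPM over the 12 libraries, while EPCAM was not among the listed symbols. Of the markers of other cell types, COL3A1 was at 11.1 to 15.6 RPM and COL1A1 at 0.423 to 1.61 RPM, and PTPRC, PECAM1, PRSS1 and CPA1 were not among the listed symbols. The part of these in the results above was not tested. The deposited scaling between libraries was 0.979 to 1.029, and the 3 libraries at 40 mM with gemcitabine had factors of 1.026 to 1.029. Under quantile normalization the share of calls that were higher moved, over all genes, to 50.1% for 40 against 2 mM with the drug, against 39.9% as reported, and to 54.7% for the interaction, against 33.1%.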

How the data were processed

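RNA of 12 MIA PaCa-2 libraries was sequenced by a company from total RNA, per the labels' protocols. The authors deposited 1 table of log2 values, and from the values each is the log2 of RPM plus a pseudocount of 1. RPM here is reads per 1000000 of a library size that was scaled between libraries, by 0.979 to 1.029. In every library 100% of values were whole reads within 0.05 read, so reads were recovered, 21723094 to 32811746 per library. The aligner, counting program, strand setting and genome build were not given in the sources used here. Groups came from the sample titles, and 0 columns belonged to other samples.

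Genes with at least 1 RPM in 3 libraries entered a limma fit (limma 3.58.1, R 4.3.3; 4 group means, mean-variance trend, two-sided, Benjamini-Hochberg over 12789 genes, threshold 0.05), which was also run on simulated reads. Members, gene lists and tests were chosen with earlier results of these data known. Named genes are each tested replacement gene, each replication-dependent gene called in a pairwise comparison, and up to 4 genes of each list by smallest p with the drug, plus SLBP, NPAT, ASF1B and CENPA; H2BU1, H3C2, H2BC11, ERI1, CHAF1B and HIRA were added after their values were seen. The values of 1 further gene under this rule are not reported here; it stays in all fits, sums and counts. Replicate pairs of a group differed by more than counting noise (chi-square over degrees of freedom 2.36 to 5.43), so none was counted as 1 sample. Alternatives were no filter, 5 RPM, a pseudocount of 0.25, quantile and median-of-ratios scaling, voom on recovered reads, robust moderation, a fit of the compared libraries alone, a replicate block and leaving out each library. Transcript ends came from GENCODE v29 and promoters from RefSeq (GRCh38.p14). Intervals from reads cover counting error only.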

Additional observations from a re-analysis of the deposited data

How the results depend on the processing

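Of 34 histone calls, 11 were lost under at least 1 alternative and 0 reversed. Of 39 calls of other named genes 11 were lost. A call counts as lost only where the alternative still tested the gene. H1-5, H2BC5, H2BC21 and H2AC6 were not tested with a filter of 5 RPM, so the end of their calls there is not counted. With a filter of 5 RPM, which left 12 histone rows, the count of histone genes higher at 40 mM was 3 without and 3 with the drug, against 5 and 5, and the count lower with the drug at 2 mM was 1, against 2, because the lower genes were no longer tested. The count lower at 40 mM without the drug was 3 under quantile normalization and 3 in a fit of the 6 compared libraries, against 5. Leaving out 1 library gave 1 to 2 histone genes lower with the drug at 2 mM, 0 to 1 lower with the drug at 40 mM, 1 to 5 lower at 40 mM without the drug, and 0 to 1 lower in the interaction (1 without replicate 2 at 40 mM without drug). Other counts stayed within 1.5 times: 6 to 7 higher with the drug at 2 mM, 5 to 6 higher with it at 40 mM, and, at 40 against 2 mM, 5 to 6 higher without the drug, 4 to 5 higher with it and 3 to 4 lower with it. H1-4 was gained without replicate 1 at 40 mM without drug, with the drug at 40 mM (0.55, limma adjusted p = 0.0466) and with glutamine (−0.61, 0.0396), and H2AZ2 under quantile normalization (0.09, 0.0397). In the glutamine comparison without the drug, H3-3B also missed the threshold without a filter (limma adjusted p = 0.0534), under quantile normalization (0.0906) and with 6 libraries (0.0855). The causes were not tested. Replicate numbers did not pair the libraries (18 correlations of −0.0768 to 0.048), and the fit with a replicate block gave the same counts, 7 higher and 2 lower, 5 and 1, 5 and 5, 5 and 4, and 0 and 0. Depth limits the clustered genes: at about 25.3 reads per RPM, the standard error of their log2 fold changes was 0.122 to 0.202.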
